A study of Mus musculus with 6 samples.

Results

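The 10 genes described here belong to the HIF pathway, by which cells respond to low oxygen. They were taken by symbol from a table of 23940 genes. The members are the HIF alpha subunits Hif1a and Epas1, the prolyl hydroxylases Egln1 and Egln3, and the HIF target genes Bnip3, Ero1l, Ndrg1, Car9, Ankrd37 and Adm. All 10 symbols were found. RNA came from CD45-negative cells sorted from 6 tumours of YUMM1.7, a mouse melanoma line with an activating Braf mutation, grown in C57BL/6 mice. The on-BRAFi group holds 3 residual tumours taken during BRAF inhibitor treatment, and the pre-treatment group holds 3 tumours taken before any MAPK inhibitor. The labels do not name the inhibitor, its dose, the time on treatment or the age of the mice.

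HIF is a heterodimer of an oxygen-regulated alpha subunit and ARNT. In the presence of oxygen the EGLN enzymes hydroxylate prolines of the alpha subunit, and the VHL ubiquitin ligase then marks it for destruction. When oxygen is short the alpha subunit persists, joins ARNT and binds a short DNA core near its target genes. In tumours these targets are known for vessel growth, glycolysis, pH control and mitochondrial turnover. The alpha subunits are controlled mainly at the protein level, so their mRNA is not a measure of HIF activity.

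Promoter windows from RefSeq (build GRCm38.p6) were matched for 8 of the 10 members, and 4 are shown because they belong to the targets Bnip3, Ero1l, Car9 and Adm, whose values differ in size and direction below. Each runs 5′ to 3′ on the gene's strand over the 250 bases before the start, and capitals mark the HIF core letters ACGTG or GCGTG read on either strand. Adjoining or overlapping matches run together. The windows lie at chr7:138909507-138909756 (minus strand), chr14:45318573-45318822 (minus strand), chr4:43506776-43507025 (plus strand) and chr7:110627407-110627656 (plus strand).
Bnip3: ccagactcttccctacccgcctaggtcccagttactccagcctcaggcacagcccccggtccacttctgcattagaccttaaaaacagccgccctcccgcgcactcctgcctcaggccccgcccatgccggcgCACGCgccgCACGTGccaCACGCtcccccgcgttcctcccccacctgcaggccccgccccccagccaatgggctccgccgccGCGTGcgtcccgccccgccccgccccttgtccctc
Ero1l: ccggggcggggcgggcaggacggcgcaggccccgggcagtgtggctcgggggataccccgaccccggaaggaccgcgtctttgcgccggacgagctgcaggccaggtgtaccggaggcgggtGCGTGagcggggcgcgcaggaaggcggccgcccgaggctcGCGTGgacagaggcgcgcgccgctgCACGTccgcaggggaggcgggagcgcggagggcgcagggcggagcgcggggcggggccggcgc
Car9: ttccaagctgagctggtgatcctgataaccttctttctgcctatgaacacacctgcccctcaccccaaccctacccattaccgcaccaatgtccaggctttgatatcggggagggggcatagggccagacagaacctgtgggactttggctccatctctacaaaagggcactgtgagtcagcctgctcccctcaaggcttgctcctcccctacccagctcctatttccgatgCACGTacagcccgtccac
Adm: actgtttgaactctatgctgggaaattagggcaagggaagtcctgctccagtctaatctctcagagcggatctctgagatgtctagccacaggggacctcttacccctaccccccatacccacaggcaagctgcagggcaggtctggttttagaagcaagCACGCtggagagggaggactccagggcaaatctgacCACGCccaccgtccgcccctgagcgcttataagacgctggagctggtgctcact

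ACGTG stood on either strand in 7 of the 8 member windows, the exception being Adm, against 16.6% of all 32851 windows in the table. GCGTG stood in 5 of the 8, against 28.2% of all windows. Both cores hold CG and are more frequent in GC-rich sequence: among windows of at least 60% G and C, 23.0% held ACGTG and 53.9% held GCGTG. Bnip3 had 5 matches, including an ACGTG on each strand that overlap as a palindrome. Ero1l had 3, Car9 had a single match close to the start, and Adm had GCGTG at 2 places. These are matches of letters and not measured binding.

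Values are FPKM, fragments per kilobase of transcript scaled to library size, so levels can be compared between genes. The 6 libraries held between 11074 and 11740 genes of at least 1 FPKM. Read depth is unknown, since the table holds no counts. Summed FPKM was 414834 to 554684 on BRAFi and 562041 to 921297 before treatment, so the scaling of libraries matters below; short RNAs (1202 symbols) took 23.1% to 40.7% of the sum. Ptprc, which encodes CD45, was at 0.118 to 1.10 FPKM in on-BRAFi libraries and at 0.609 to 2.18 FPKM in pre-treatment libraries. The sum of 10 leukocyte markers, Ptprc among them, was 22.0 to 44.2 FPKM on BRAFi and 27.6 to 34.2 FPKM before treatment. Lyz2 (14.2 FPKM on BRAFi, 13.2 before treatment) and Cd68 (12.1 and 10.2) were the most abundant. The 5 leukocyte markers that were tested did not pass in the test below. The melanocyte markers Tyrp1, Dct and Mlana were listed at 0 in every library and Sox10 did not exceed 0.114 FPKM. Mitf was at 19.3 to 23.6 FPKM on BRAFi and at 4.43 to 7.23 FPKM before treatment. Tyr was at 5.08 ± 1.49 FPKM on BRAFi and 3.82 ± 1.19 FPKM before treatment (SD, n = 3 each). S100b was at 1.15 ± 0.562 FPKM on BRAFi and 1.02 ± 0.101 FPKM before treatment. For both Tyr and S100b the groups overlap. The summed level of 10 fibroblast markers was 9172 to 9903 FPKM on BRAFi and 1236 to 1762 FPKM before treatment. Its largest part was the collagen gene Col3a1, at 4761 ± 128 FPKM on BRAFi and 531 ± 103 FPKM before treatment (SD, n = 3 each). In the test below 6 of the 10 passed as higher. Thy1, Pdgfra (154 FPKM on BRAFi, 135 before treatment), Fap (43.3 and 42.9) and Pdpn (55.5 and 73.7) did not pass. The sum of 10 endothelial markers was 94.1 to 146 FPKM on BRAFi and 41.7 to 53.8 FPKM before treatment. For 4 markers of cycling cells the sum was 17.8 to 32.7 FPKM on BRAFi and 153 to 190 FPKM before treatment. In such a mix, fewer cells of a type and less RNA per cell cannot be told apart, and the part of the cell mix in the results below was not tested except where a value is given.

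On BRAF inhibitor Epas1 and Ndrg1 rose, and Bnip3 and Ero1l fell. The other 6 members did not pass the test (limma with Benjamini-Hochberg adjustment over 12075 genes, threshold 0.05). Among all genes tested, 19.1% were called, 8.76% higher and 10.3% lower; 2 members of 10 were called in each direction. The 3 values of one group lay wholly apart from those of the other for 2 members higher on BRAFi and 5 lower, against 20.9% of all tested genes higher, 19.5% lower and 40.4% in either direction. The median log2 fold change was -1.13 over the members and -0.01 over all genes tested. Higher genes made up 45.9% of all calls, 79.7% after each library was rescaled to the same total and 85.2% after the same without short RNAs, while no member changed direction in any alternative in which it was tested. Of the 17 alternatives run, Egln1 was tested in 13, Car9 in 15, Hif1a, Ankrd37 and Adm in 16 each, and the other 5 members in all; Egln1 fell under the filter in both rescalings.

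**Figure D1:**
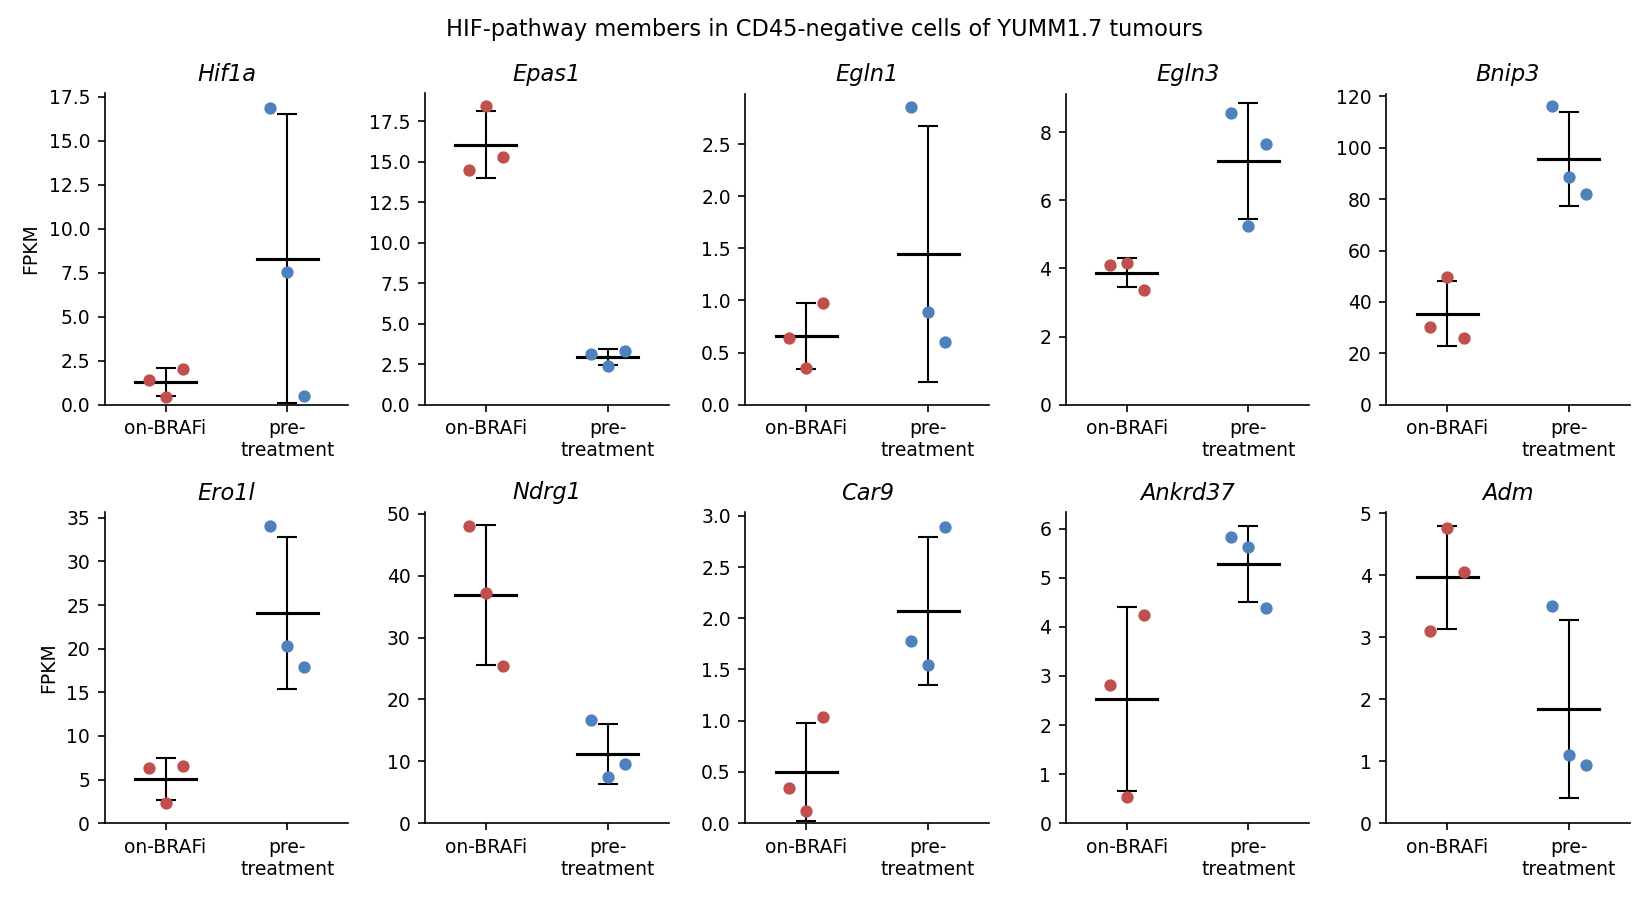
FPKM of each member in the 3 on-BRAFi libraries (red, left) and the 3 pre-treatment libraries (blue, right); each point is a tumour, the long line is the mean and the error bar the SD. Epas1 and Ndrg1 lie higher on BRAFi and Bnip3 and Ero1l lower without overlap, while Hif1a ranges from 0.486 to 16.9 FPKM among pre-treatment tumours.

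Epas1 encodes HIF-2 alpha, a subunit known from endothelial cells among others. It was at 14.5, 18.4 and 15.3 FPKM in the on-BRAFi tumours and at 3.13, 2.42 and 3.32 FPKM in the pre-treatment tumours. Every treated tumour lay far above every untreated one, with little spread in either group. The log2 fold change was 2.41 ± 0.21 (SE), or 5.30-fold (limma, adjusted p = 0.00128), and the call held in all 17 alternatives, with adjusted p up to 0.0150. Most endothelial markers moved in the same direction. Cdh5, the cadherin of endothelial junctions, was at 16.2 ± 4.87 FPKM on BRAFi and 5.34 ± 0.486 FPKM before treatment (SD, n = 3 each). The difference was 2.93-fold (limma, adjusted p = 0.00783). Eng, the most abundant endothelial marker of the 10, was at 23.8 ± 4.06 FPKM on BRAFi and 22.6 ± 7.85 FPKM before treatment. Eng, Tie1 and Flt1 did not pass (limma, adjusted p = 0.807, 0.966 and 0.128). Of the 10 endothelial markers 7 rose and none fell, and of the 10 fibroblast markers 6 rose and none fell. Their part in the Epas1 difference was not tested.

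Hif1a encodes HIF-1 alpha, the subunit most cells carry. It was at 1.40, 0.440 and 2.02 FPKM in the on-BRAFi tumours and at 16.9, 7.57 and 0.486 FPKM in the pre-treatment tumours. The groups overlap, because pre-treatment replicate 3 lay as low as the treated tumours. Its spread among the pre-treatment libraries, an SD of 2.54 on the log2 scale, was wider than that of 97.6% of tested genes. The log2 fold change of -1.83 had a 95% interval from -4.75 to 1.10 and did not pass (limma, adjusted p = 0.343). Without pre-treatment replicate 3 it was -3.25 and passed (limma, adjusted p = 0.0332), so the Hif1a result rests on that library.

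The balance of the alpha subunits can be read within a library, where scaling between libraries cancels. Epas1 stood at 10.4, 41.9 and 7.58 times the Hif1a level on BRAFi, and at 0.186, 0.319 and 6.84 times before treatment. All 3 treated tumours thus held more Epas1 than Hif1a mRNA, as did pre-treatment replicate 3, while the other 2 pre-treatment tumours held less. The log2 ratio, with 0.1 FPKM added to each gene, averaged 3.75 ± 1.19 on BRAFi and -0.48 ± 2.65 before treatment (SD, n = 3 each), with an exact two-sided permutation p of 0.1, the smallest that 3 against 3 allows.

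**Figure D2:**
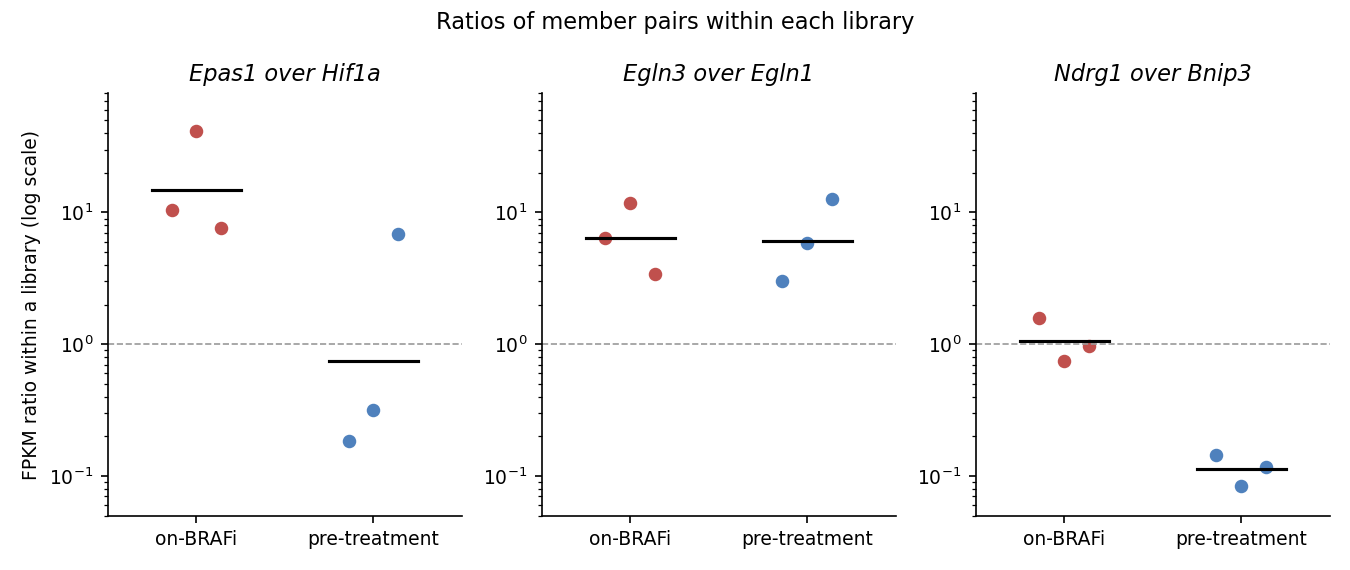
FPKM ratio of member pairs within each library, on a log scale, for on-BRAFi (red, left) and pre-treatment (blue, right) tumours; points are tumours, the black line is the geometric mean and the dashed line marks equal levels. Ndrg1 over Bnip3 separates the groups widely, Epas1 over Hif1a narrowly, at 7.58 on BRAFi against 6.84 before treatment, and Egln3 over Egln1 overlaps.

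Most partners and regulators of the alpha subunits did not pass the test. Arnt, the constitutive partner, was at 34.0 ± 2.35 FPKM on BRAFi and 23.5 ± 3.90 FPKM before treatment (SD, n = 3 each) and did not pass (limma, adjusted p = 0.0814). Vhl, the substrate receptor of the ligase, was at 4.69 ± 1.38 FPKM on BRAFi and 3.62 ± 0.138 FPKM before treatment. Hif1an, the asparagine hydroxylase that blocks coactivator binding, was at 6.77 ± 1.10 FPKM on BRAFi and 5.13 ± 0.597 FPKM before treatment. Neither passed (limma, adjusted p = 0.448 for Vhl and 0.261 for Hif1an). Of the 12 tested genes in this group 1 rose and 2 fell (median log2 fold change -0.10, beside -0.01 for all genes tested). Hif3a, an alpha subunit with inhibitory isoforms, rose and was at 1.85 ± 0.388 FPKM on BRAFi and 0.203 ± 0.0471 FPKM before treatment. That call was lost without any 1 pre-treatment library (limma, adjusted p from 0.0521 to 0.0679) and with tumour number as a replicate block (limma, adjusted p = 0.108). Without any 1 on-BRAFi library Hif3a fell under the filter on low values and was not tested. Tceb2 and Rbx1, subunits of the VHL ligase, fell 1.53-fold and 1.58-fold. Leaving out whichever single library lost both calls (limma, adjusted p up to 0.128), and rescaling to the same total gave log2 fold changes of -0.07 for Tceb2 and -0.12 for Rbx1. Rescaling also brought calls: Arnt and Crebbp passed as higher after rescaling to the same total (limma, adjusted p = 0.0465 and 0.0457), and Arnt, Crebbp, Vhl and Hif1an after the same without short RNAs (limma, adjusted p = 0.00777 to 0.0432), so calls in this group depend on the scaling. The most abundant of the genes uncalled without rescaling were Tceb1, another ligase subunit, at 72.1 ± 16.3 FPKM on BRAFi and 134 ± 48.9 FPKM before treatment (SD, n = 3 each), and Crebbp, a coactivator, with a log2 fold change of 0.64 (limma, adjusted p = 0.0734).

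**Figure D3:**
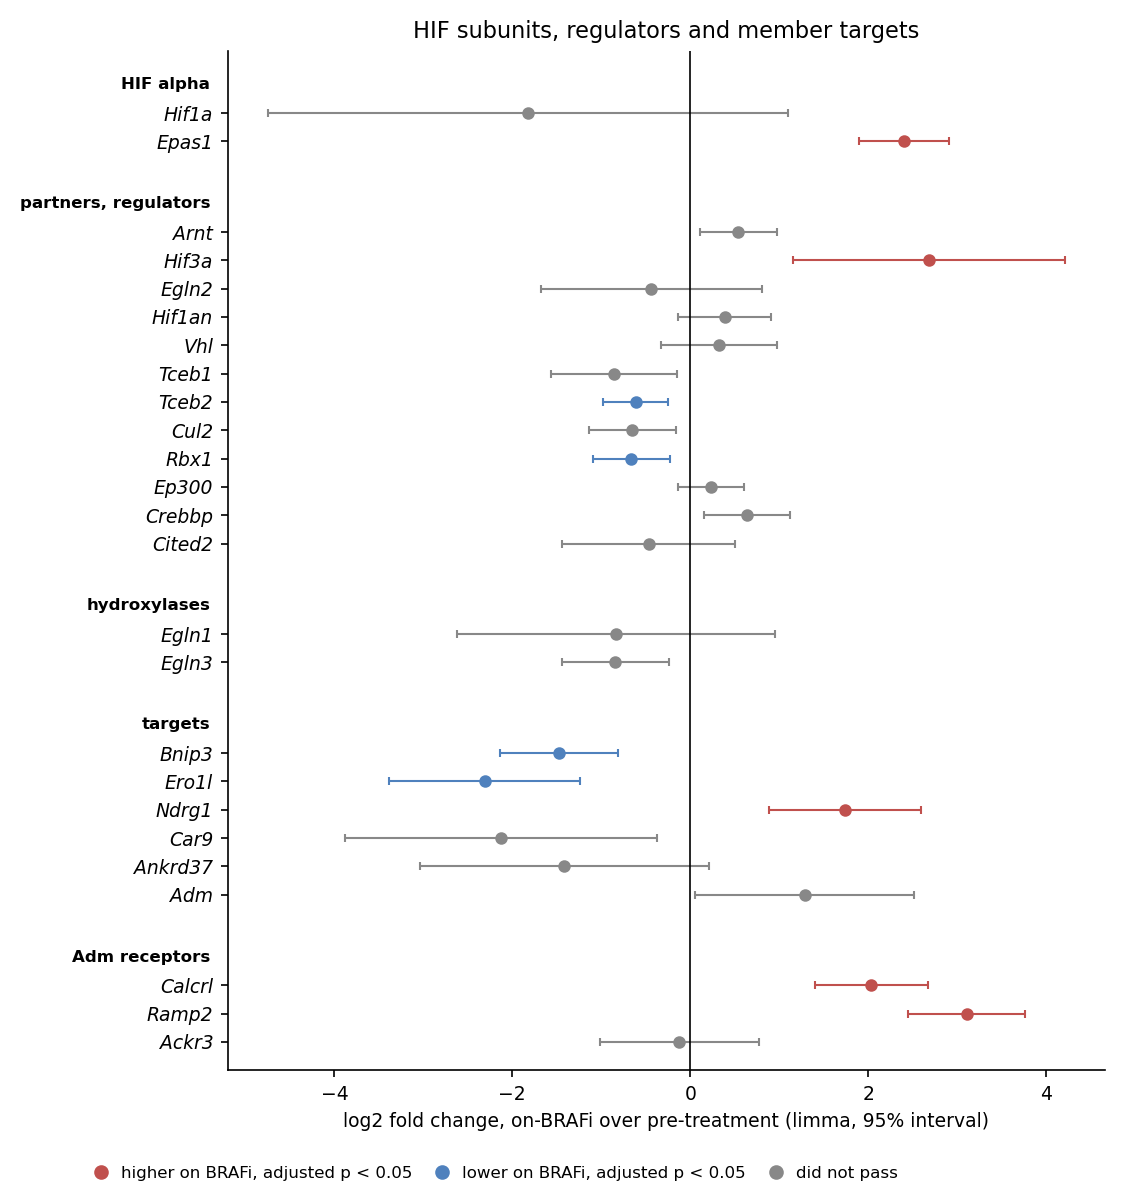
Log2 fold change, on-BRAFi over pre-treatment, with its 95% interval from limma, for the HIF alpha subunits, their partners and regulators, the hydroxylases, the member targets and the adrenomedullin receptors; red passed as higher, blue passed as lower, grey did not pass. Epas1 (2.41) and Ramp2 (3.11) lie far to the right, and the widest interval is that of Hif1a, from -4.75 to 1.10.

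Egln1 and Egln3 encode the prolyl hydroxylases PHD2 and PHD3 and are themselves HIF targets, Egln3 strongly inducible. Egln3 was at 4.11, 4.15 and 3.37 FPKM in the on-BRAFi tumours and at 8.55, 5.24 and 7.65 FPKM in the pre-treatment tumours. The groups do not overlap, yet the 1.79-fold lower level missed the threshold (limma, adjusted p = 0.0609) and passed only without pre-treatment replicate 2 (limma, adjusted p = 0.0466). Its log2 fold change of -0.84 shrank to -0.31 after rescaling to the same total (limma, adjusted p = 0.451). After the same without short RNAs it was -0.25 (limma, adjusted p = 0.425). Egln1 was low throughout, at 0.644, 0.352 and 0.980 FPKM on BRAFi and at 2.85, 0.890 and 0.601 FPKM before treatment, and its groups overlap. Its log2 fold change of -0.83 had a 95% interval from -2.62 to 0.95. Egln3 exceeded Egln1 in all 6 libraries, by 3.44 to 11.8 times on BRAFi and 3.00 to 12.7 times before treatment, and the difference in their log2 ratio, on the same scale, was -0.01 (exact two-sided permutation p = 1).

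Bnip3 encodes a receptor in the outer mitochondrial membrane that directs mitochondria to autophagy, and its window above held the most core matches of the 8. It was at 30.3, 49.7 and 26.0 FPKM in the on-BRAFi tumours and at 116, 88.5 and 82.1 FPKM in the pre-treatment tumours. Every treated value lay below every untreated one. The fall was 2.78-fold, a log2 fold change of -1.48 ± 0.28 (SE; limma, adjusted p = 0.0136), and it missed the threshold without on-BRAFi replicate 1 (limma, adjusted p = 0.0561). Bnip3l, its paralogue and also a mitophagy receptor, was at 92.9 ± 21.4 FPKM on BRAFi and 114 ± 12.5 FPKM before treatment (SD, n = 3 each) and did not pass (limma, adjusted p = 0.361); its log2 fold change of -0.31 turned positive after rescaling to the same total. Of 6 tested mitophagy genes Phb2, a receptor of the inner membrane, fell and the other 5 did not pass; Phb2 missed the threshold after rescaling to the same total (limma, adjusted p = 0.297).

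Ero1l encodes an oxidase that drives disulfide formation in the endoplasmic reticulum. It was at 6.28, 2.31 and 6.61 FPKM in the on-BRAFi tumours and at 34.1, 20.3 and 17.9 FPKM in the pre-treatment tumours. The gap between the groups was wider than the range of the treated tumours. The log2 fold change was -2.31 ± 0.45 (SE; limma, adjusted p = 0.0152), and the call held in all 17 alternatives, with adjusted p up to 0.0478.

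Ndrg1, a hypoxia-induced gene of membrane trafficking and differentiation, moved the other way. It was at 48.1, 37.2 and 25.4 FPKM in the on-BRAFi tumours and at 16.7, 7.43 and 9.64 FPKM in the pre-treatment tumours, with no overlap. The rise was 3.34-fold, a log2 fold change of 1.74 ± 0.36 (SE; limma, adjusted p = 0.0184). Without on-BRAFi replicate 1 or 2 or pre-treatment replicate 2 or 3 it missed the threshold, with adjusted p from 0.0544 to 0.0675 (limma) and log2 fold changes from 1.48 to 1.71. The ratio of Ndrg1 to Bnip3 within a library was 1.59, 0.748 and 0.978 on BRAFi and 0.143, 0.0840 and 0.117 before treatment. This ratio hardly depends on the scaling of libraries, and with 0.1 FPKM added to each gene it differed by 3.21 on the log2 scale (exact two-sided permutation p = 0.1, the smallest possible). Ndrg1 takes its name from repression by N-Myc, and Mycn did not exceed 0.0624 FPKM in any library. Myc was at 4.76 ± 0.740 FPKM on BRAFi and 12.2 ± 5.48 FPKM before treatment (SD, n = 3 each) and did not pass (limma, adjusted p = 0.0574). Of 17 alternatives it passed as lower in 3: median-of-ratios scaling, quantile scaling and without pre-treatment replicate 2. After rescaling to the same total its log2 fold change was -0.70 (limma, adjusted p = 0.174). Any part of Myc in the Ndrg1 rise was not tested.

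Car9 and Ankrd37 were lower in every treated tumour but did not pass. Car9 encodes a membrane carbonic anhydrase with a part in pH control, and is widely used as a hypoxia marker. It was at 0.341, 0.123 and 1.03 FPKM on BRAFi and at 1.78, 1.54 and 2.89 FPKM before treatment, a low level in both groups without overlap (limma, adjusted p = 0.0922). Ankrd37, an ankyrin-repeat protein gene, was at 2.81, 0.538 and 4.24 FPKM on BRAFi and at 5.84, 5.62 and 4.39 FPKM before treatment (limma, adjusted p = 0.194). On-BRAFi replicate 2 was the lowest treated library for both genes, and on-BRAFi replicate 3 lay just under the untreated range for Ankrd37. In GENCODE M21 its exons overlap those of Ufsp2 and Lrp2bp on the opposite strand, and the libraries are unstranded, so reads in the shared stretches, up to 57 bases with Ufsp2 and 259 with Lrp2bp, cannot be told apart. Ufsp2 was at 37.4 ± 1.24 FPKM on BRAFi and 26.9 ± 6.92 FPKM before treatment (SD, n = 3 each). Lrp2bp was at 0.529 ± 0.505 FPKM on BRAFi and 0.723 ± 0.221 FPKM before treatment. Exons of Bnip3, Ndrg1, Hif1a and Car9 also overlap exons of other genes, by up to 342 bases. Those genes are not among the 23940, so their levels are unknown.

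Adm encodes adrenomedullin, a secreted peptide that widens vessels and maintains endothelium. It was at 3.10, 4.76 and 4.05 FPKM in the on-BRAFi tumours and at 3.50, 1.10 and 0.932 FPKM in the pre-treatment tumours. Only pre-treatment replicate 1 fell within the treated range. The log2 fold change of 1.29 had a 95% interval from 0.06 to 2.51 and did not pass (limma, adjusted p = 0.131). Without pre-treatment replicate 1 it was 1.85 and passed (limma, adjusted p = 0.0230), as it did with array weights and after each rescaling to the same total.

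Of the 6 listed genes of adrenomedullin reception and its related peptide, 3 were tested, and Calcrl and Ramp2 rose. Calcrl, the receptor itself, was at 133, 122 and 125 FPKM on BRAFi and at 21.1, 31.7 and 43.5 FPKM before treatment, a 4.10-fold rise (limma, adjusted p = 0.00378). Ramp2, the accessory protein that gives Calcrl its affinity for adrenomedullin, was at 79.7, 53.5 and 54.8 FPKM on BRAFi and at 9.75, 6.73 and 5.35 FPKM before treatment, an 8.62-fold rise (limma, adjusted p = 0.00128). Both calls held in all 17 alternatives. Ackr3, a scavenging receptor of the peptide, was at 34.2 ± 16.0 FPKM on BRAFi and 34.4 ± 5.12 FPKM before treatment (SD, n = 3 each) and did not pass (limma, adjusted p = 0.849). Ramp3, another accessory protein of Calcrl, fell under the filter, at 0.158, 0 and 0.357 FPKM on BRAFi and at 2.77, 0.293 and 1.40 FPKM before treatment, with overlap. Both Calcrl and Ramp2 are also expressed by endothelial cells. Of the 10 endothelial markers 7 were higher too, and the part of endothelial cells in these rises was not tested.

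By level, the order of the members changed between the groups. On BRAFi the most abundant were Ndrg1 (36.9 ± 11.3 FPKM) and Bnip3 (35.3 ± 12.6 FPKM), whose values overlap, followed by Epas1 (16.1 ± 2.08 FPKM) and, well below it, Ero1l (5.07 ± 2.40 FPKM), Adm (3.97 ± 0.833 FPKM), Egln3 (3.88 ± 0.438 FPKM) and Ankrd37 (2.53 ± 1.87 FPKM). Hif1a followed at 1.28 ± 0.794 FPKM. From Ero1l down to Hif1a, each gene's values overlap those of the next. Before treatment Bnip3 led at 95.7 ± 18.3 FPKM, with Ero1l (24.1 ± 8.72 FPKM) and Ndrg1 (11.3 ± 4.84 FPKM) next and no overlap among these 3. Hif1a (8.30 ± 8.21 FPKM) and Egln3 (7.15 ± 1.71 FPKM) followed, and the values of both overlap those of Ndrg1. In pre-treatment replicates 1 and 2 Hif1a lay just above Ndrg1. Epas1, at 2.96 ± 0.478 FPKM, stood below Ankrd37 (5.29 ± 0.780 FPKM) and above Car9 (2.07 ± 0.722 FPKM) in each library, though the ranges of Epas1 and Car9 overlap (SD, n = 3 each throughout). Car9 and Egln1 were the lowest 2 on BRAFi, at 0.499 ± 0.476 and 0.659 ± 0.314 FPKM, with overlapping values. Genes whose profile over the 6 libraries lay among the nearest to those of Bnip3, Ero1l and Ndrg1 were picked by the mean absolute difference in centred log2 values. For Bnip3 they were Eif2s1 (0.09) and Shmt2 (0.09), for Ero1l Rpl8 (0.16), and for Ndrg1 Lifr (0.15) and Cxx1c (0.15).

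Other known HIF targets also moved in both directions, more of them lower on the FPKM as deposited. Of 21 tested targets outside glycolysis, 8 fell and 2 rose. Their median log2 fold change was -0.57, beside -0.01 for all genes tested. Fam162a, a mitochondrial protein induced by HIF-1, was at 44.7 ± 9.55 FPKM on BRAFi and 131 ± 31.2 FPKM before treatment (SD, n = 3 each), a 2.91-fold fall (limma, adjusted p = 0.00785) that held in all 17 alternatives. Vegfa, the main growth factor of vessels, was at 9.73, 10.8 and 7.11 FPKM on BRAFi and at 23.8, 17.8 and 15.1 FPKM before treatment, a 2.03-fold fall (limma, adjusted p = 0.0323). That call held without pre-treatment replicate 3 but was lost on leaving out each other library in turn (limma, adjusted p up to 0.0859) and after rescaling to the same total (limma, adjusted p = 0.176). Others that fell were the collagen-modifying enzymes P4ha1 and Plod2, the demethylase Kdm3a, and the mitochondrial proteins Higd1a and Ak4, between 1.60-fold for Kdm3a and 3.75-fold for Higd1a. The collagen prolyl hydroxylase subunit P4ha2 and the lipase inhibitor Angptl4 rose, 2.00-fold and 7.46-fold; P4ha2 lost its call without each single on-BRAFi library and without pre-treatment replicate 2 (limma, adjusted p up to 0.0852), and Angptl4 without on-BRAFi replicate 1 or 2 or pre-treatment replicate 2 (up to 0.0960). Angptl4 is also made by adipocytes, and 4 adipocyte markers summed to 45.4, 158 and 18.0 FPKM on BRAFi and to 1.84 to 2.85 FPKM before treatment. Nearly all of that sum was Fabp4: Adipoq, Plin1 and Lep did not exceed 0.323 FPKM and were listed at 0 in every pre-treatment library. P4ha1, Plod2, Kdm3a, Higd1a and Ak4 each missed the threshold without at least 2 single libraries (limma, adjusted p up to 0.126). After rescaling to the same total, P4ha1, Plod2 and Kdm3a had log2 fold changes of -0.32, -0.43 and -0.13. All 3 then lost their calls (limma, adjusted p = 0.585, 0.230 and 0.715), while Higd1a and Ak4 kept theirs. The number of lower calls in this group thus depends on the scaling.

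**Figure D4:**
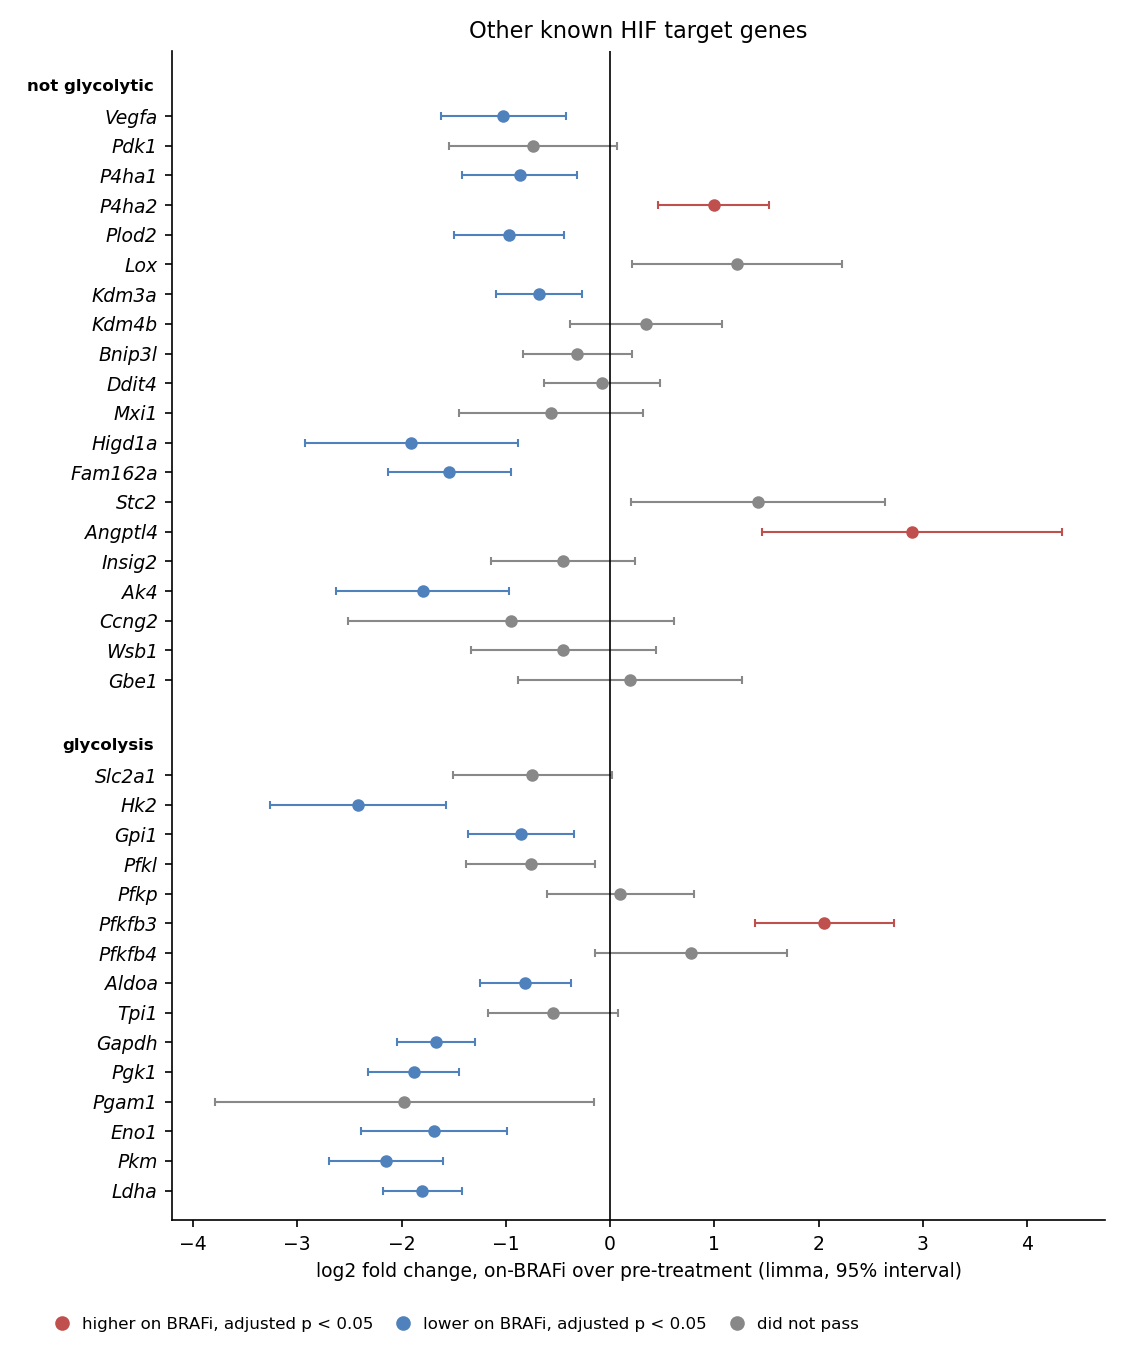
Log2 fold change, on-BRAFi over pre-treatment, with its 95% interval from limma, for other known HIF targets outside and within glycolysis that are reported here; red passed as higher, blue passed as lower, grey did not pass. Most targets lie left of 0, with medians of -0.57 and -0.85, while Angptl4 (2.90) and Pfkfb3 (2.05) lie to the right.

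Among 15 tested HIF targets of glycolysis, 8 fell and 1 rose, against 10.3% lower and 8.76% higher among all genes tested. The median was -0.85 on the log2 scale, beside -0.01 for all genes tested. Of the 8, Gpi1 and Aldoa missed the threshold after rescaling to the same total (limma, adjusted p = 0.359 and 0.427). Both also missed it with quantile scaling (limma, adjusted p = 0.0852 and 0.133). Hk2, the inducible hexokinase, was at 1.51, 1.89 and 1.95 FPKM on BRAFi and at 16.6, 8.38 and 6.99 FPKM before treatment, a 5.34-fold fall (limma, adjusted p = 0.00560). Pgk1, an ATP-forming kinase, was at 59.5 ± 9.49 FPKM on BRAFi and 219 ± 26.3 FPKM before treatment, and Ldha, which makes lactate, at 52.6 ± 5.48 FPKM on BRAFi and 183 ± 15.1 FPKM before treatment (SD, n = 3 each). Slc2a1, the glucose transporter GLUT1, had a log2 fold change of -0.75 and did not pass (limma, adjusted p = 0.154). Pfkfb3, which makes an activator of phosphofructokinase, rose 4.15-fold (limma, adjusted p = 0.00445). Of the 26 calls over all these pathway genes, 10 held in every alternative in which the gene was tested (all 17, or 16 for Pfkfb3): Fam162a, Calcrl, Ramp2, Hk2, Pfkfb3, Gapdh, Pgk1, Eno1, Pkm and Ldha.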

How the data were processed

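RNA was sequenced from CD45-negative cells of 6 tumours, 3 on BRAF inhibitor and 3 pre-treatment, numbered per tumour in the labels. The authors deposited 1 table of FPKM by gene symbol. TopHat2, TopHat, Cuffnorm, Cuffdiff and the build mm9 are named in the submitters' processing notes, with no version. Poly(A) RNA was made into unstranded libraries, per the labels' protocols; the protocol says paired-end and the series design single-end reads. Depth is unknown and no counts were used, and tests weigh differences against the spread among these 6 tumours. Promoter windows are on GRCm38.p6 and were used for their letters only.

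The 12075 genes whose FPKM averaged at least 1 were fitted as log2(FPKM + 0.1) with limma 3.58.1 in R 4.3.3 (eBayes with trend), two-sided, with Benjamini-Hochberg adjustment over all of them. Fold changes are on that scale and understate low genes. The fit was tested on 5 simulated sets with independent noise for each gene, which cannot test the scaling of libraries. Members, lists and tests were chosen with earlier results of these data known. Named genes are all members, every called gene of the pathway lists and the most abundant uncalled ones, with Vhl, Arnt, Hif1an and Ptprc; a few genes that this rule names are not reported here, though list counts include them. Slc2a1, Ufsp2, Cdh5, Sox10, Pdgfra, Fap, Pdpn, Thy1, Ramp3, Fabp4, Adipoq, Plin1 and Lep were added after their values were seen. So were Eng, Tie1, Flt1, Lyz2, Cd68 and Lrp2bp. The 17 alternatives were 2 pseudocounts, 2 filters, 4 scalings, no trend, array weights, a replicate block and each of 6 libraries left out; scaling without short RNAs was added after seeing the data.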

Additional observations from a re-analysis of the deposited data

How the results depend on the processing

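Epas1 and Ero1l passed in every alternative, Bnip3 in all but 1 and Ndrg1 in all but 4; all 5 losses came from leaving out a library. Between 1 and 3 members were higher and between 1 and 3 lower without a single library. Over all genes, between 498 and 801 were then higher and between 732 and 943 lower, and of the pathway genes (7 higher, 19 lower) between 3 and 7 and between 10 and 14. Rescaling to the same total shifted the all-gene median to 0.54 and gave 2042 higher and 520 lower genes, and 12 and 9 pathway genes. Without short RNAs that median was 0.59, with 3896 higher and 678 lower genes, and 21 and 9 pathway genes; the log2 fold changes were then 3.00 for Epas1, 2.34 for Ndrg1, -0.88 for Bnip3 and -1.72 for Ero1l. Array weights gave 11 higher pathway genes, and a mean FPKM of at least 5 gave 3. Same-numbered tumours did not deviate together (correlations -0.03, 0.01 and -0.09), and the replicate block gave 500 higher and 737 lower genes, 4 and 10 of them on the pathway lists, with the same 4 members called.

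Directions of uncalled genes turned with scaling: Bnip3l to 0.23, 0.29 (without short RNAs) and 0.041 (quantile), Wsb1 to 0.10 and 0.15, Tpi1 to 0.00077 and 0.055, and Ackr3 to 0.42, 0.48 and 0.023, and to 0.12 with array weights. Without single libraries Ackr3 ran from -0.45 to 0.29, positive without on-BRAFi replicate 3. The Egln3 over Egln1 difference became 0.060 with a pseudocount of 0.01 and ran from -0.48 to 0.48 without single libraries. That of Epas1 over Hif1a ran from 3.28 to 5.75 and that of Ndrg1 over Bnip3 from 2.92 to 3.46. The cause of these shifts was not tested.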

Other observations

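Close relatives of the members gave values of their own. Ndrg2, a paralogue of Ndrg1, was at 4.57, 2.70 and 2.35 FPKM on BRAFi and at 0.385, 0.450 and 0.345 FPKM before treatment, a 6.47-fold rise (limma, adjusted p = 0.0101) that missed the threshold without on-BRAFi replicate 1 (limma, adjusted p = 0.0733). Ndrg3 was at 37.2 ± 1.94 FPKM on BRAFi and 29.2 ± 4.88 FPKM before treatment (SD, n = 3 each) and passed as higher only when total FPKM was equalised leaving out short RNAs. Car4, a carbonic anhydrase anchored at the cell surface, was at 2.74, 6.76 and 0.708 FPKM on BRAFi and at 0.268, 0.173 and 0 FPKM before treatment, and did not pass (limma, adjusted p = 0.0561). Car12, a membrane carbonic anhydrase that is often induced with Car9 in human tumours, stayed at or below 0.169 FPKM in every library. Of the 10 tested paralogues, Hif3a and Ndrg2 rose and none fell.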
